A study of Mus musculus with 15 samples.

Results

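The synaptic vesicle and release machinery was taken as 58 named genes, out of 21938 protein-coding genes of GENCODE M21, that encode the proteins by which a nerve terminal docks, primes and fuses its vesicles. They were chosen by name and not by any measured value, although earlier results of these data were known. For each gene, the H3K4me3 summit with the highest score within 1 kb of any of its annotated transcription start sites (TSSs) was taken as its best promoter summit, and all promoter summits and all further summits inside the gene were counted. H3K4me3 ChIP-seq had been performed on amygdala nuclei of adult male mice, 129xB6 F1 hybrids of 129S1/SvImJ and C57BL/6J parents, with 20000 nuclei per reaction. The genotypes were WT, Kmt2a-HET (1 allele lacking 2 floxed exons in the germline), Kdm5c-KO (males hemizygous for a Kdm5c deletion) and DM, which carried both mutations. The series held 2 WT samples and 3 of each mutant genotype, with 1 input sample per genotype. Only the summit list of the WT mice was used: it pools both WT samples, so no value below has a spread between replicates and no test was possible. The mutant genotypes were not analysed here.

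At a synapse, an action potential opens calcium channels at the active zone, a protein meshwork under the presynaptic membrane. SNARE proteins on the vesicle and on the plasma membrane zip together, complexins and synaptotagmins hold the fusion step under the control of calcium, and the ATPase NSF with its SNAP cofactors takes the spent SNARE complexes apart. H3K4me3, trimethylation of lysine 4 of histone H3, marks nucleosomes around the start sites of active genes and of many CpG-rich genes.

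Chromosomes 1 to 19, X and Y carried 24139 of the 24162 summits in the list, and the 58 genes held 113 of them, 73 at promoters and 40 elsewhere in the genes. Each summit is a single base with a score, taken to be the −log10 q-value that MACS2 assigns to enrichment over input. A higher score means stronger evidence for enrichment at that base. It is not a measure of how many nucleosomes carry the mark, and the sequencing depth of the pooled list is not given with it. Scores ran from 1.18 to 341.7 with a median of 102.3, and 84.4% of summits shared their score with another summit, so small differences between genes carry little weight. Of 6 neuronal marker genes, 5 had a promoter summit, with best scores of 175.1 to 284.3. The exception was Stmn2, whose nearest summit lay 1701 bp from its TSS, outside the window. Of 8 genes typical of other organs, 1 had a promoter summit (Actn3, score 229.8). The tissue holds neurons and glia together, and a mark present in few cells cannot be told apart from a weaker mark in many.

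Of the 58 genes, 56 had at least 1 promoter summit, where 64.7% of all protein-coding genes had one. The genes without were Slc17a8 (the vesicular glutamate transporter VGLUT3) and Cplx4 (complexin 4). The best scores of the 56 genes ran from 5.34 (Cplx3) to 297.6 (Napb), with a median of 192.0 and quartiles of 136.3 and 230.4. Over all protein-coding genes with a promoter summit the median was 194.6, with quartiles of 129.8 and 230.2. The release genes therefore had a promoter summit more often than coding genes at large, while the scores of those that had one were centred on the same value. The best score was at or above the list median in 46 of 58 genes (52.0% of all coding genes) and above 200 in 24 (30.5% of all coding genes). It was below 50 in 4, namely Cplx3, Ppfia4, Doc2b and Sytl4 (7.49% of all coding genes). In the plot of scores by gene, the synaptotagmins and the active zone genes spread over most of this range, and the SNARE genes lie in its upper part.

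**Figure D1:**
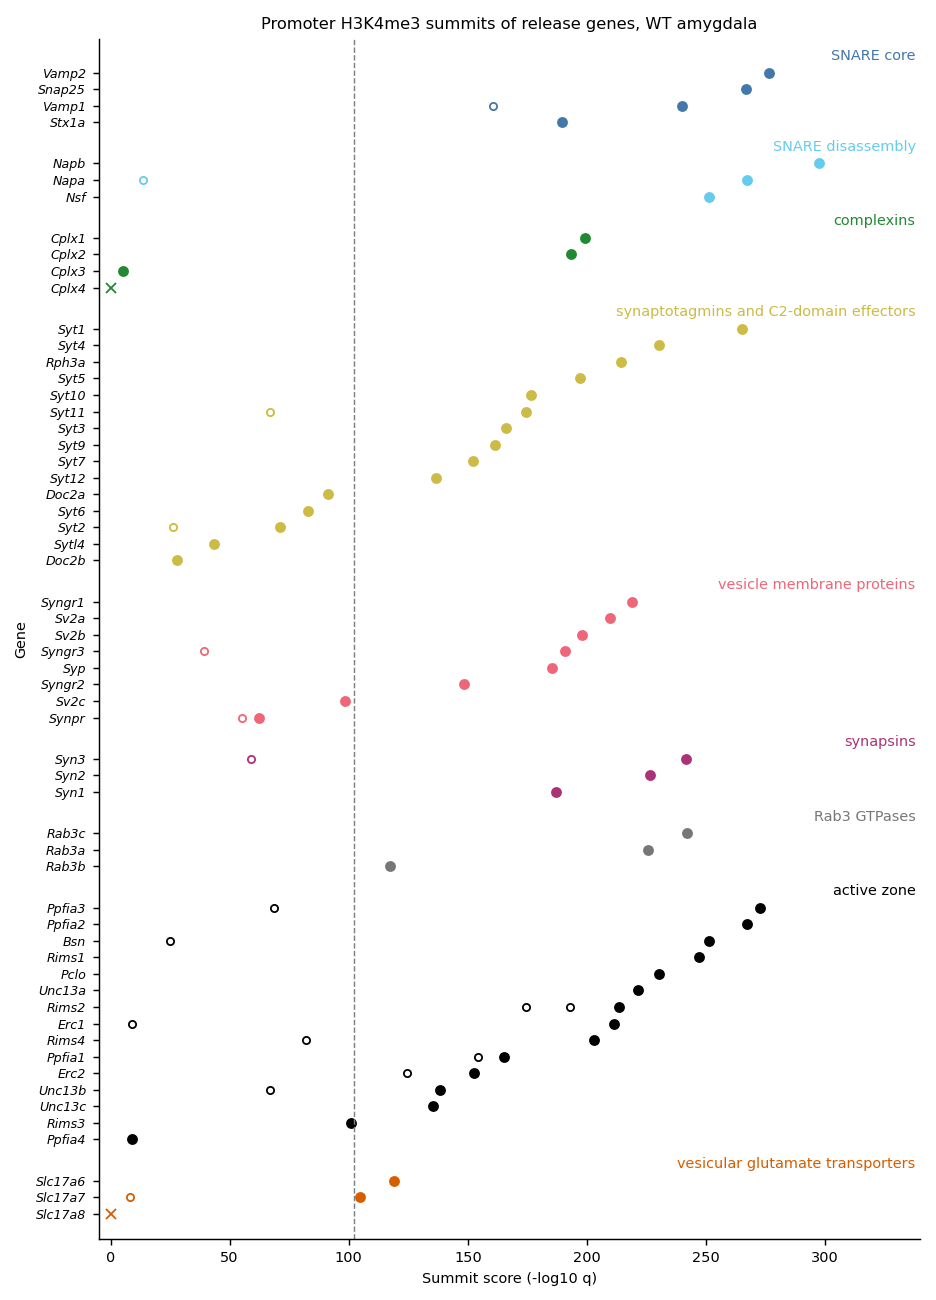
Scores (−log10 q) of the promoter summits of the 58 genes, grouped by role. Filled circles are the best promoter summit of a gene, open circles its other promoter summits, crosses genes with none (drawn at 0) and the dashed line the list median of 102.3. Napb is highest at 297.6, Cplx3 lowest at 5.34, and Slc17a8 and Cplx4 have none.

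**Figure D2:**
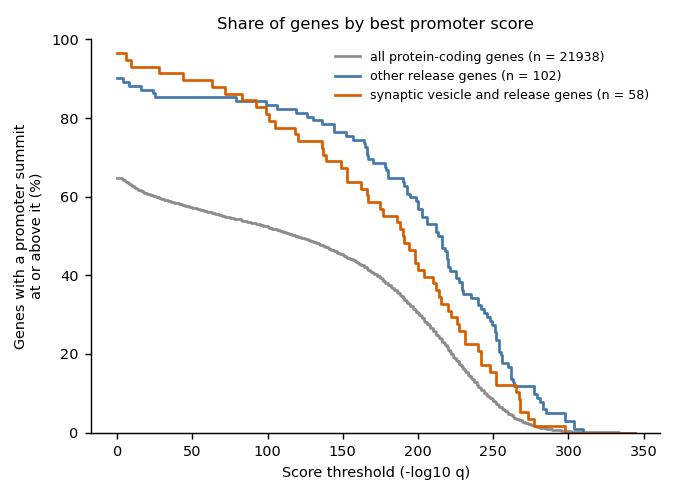
Percent of genes with a promoter summit at or above a score threshold (−log10 q), for the 58 release genes, 102 other genes of vesicle release and recycling, and all 21938 protein-coding genes. The curve of the 58 genes starts at 56 of 58 genes and lies above that of all coding genes up to about the highest scores, which few genes reach.

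The genes that assemble and take apart the SNARE complex had the highest medians of the role groups, 253.4 for assembly and 267.0 for disassembly. The membrane fusion proteins themselves are encoded by Vamp2 and Vamp1 (synaptobrevins, on the vesicle) and Snap25 and Stx1a (on the plasma membrane). Their best scores were 276.5 for Vamp2, 266.8 for Snap25, 240.0 for Vamp1 and 189.7 for Stx1a, all above the list median, and their best summits lay in a narrow band, 197 to 256 bp downstream of a TSS. Vamp2 ranked 2 among the members (chromosome 11, summit at 69088799) and Stx1a ranked 30 (chromosome 5, 135023757). The recycling genes Napb (β-SNAP), Napa (α-SNAP) and Nsf, the ATPase that they recruit, scored 297.6, 267.0 and 251.5. Nsf exceeded 93.8% of the summits in the list, and Napb exceeded 99.6%. Of the best promoter scores of all coding genes with one, they exceeded 88.0% and 99.3%. The Napb summit (ENSMUSG00000027438, chromosome 2, 148732186, minus strand) lay in an intron, 205 bp downstream of a TSS. Nsf had its summit on chromosome 11 at 103953645, 379 bp downstream of a TSS. The promoter of Napb, which carries the highest score of the 58 genes, is printed below as RefSeq gives it for GRCm38.p6, 5′ to 3′ on the strand of the gene, from 250 bases before to 50 bases after the annotated start. Each CpG is in capitals. It covers chr2:148732371-148732670 on the minus strand and holds 13 CpGs.
Napb: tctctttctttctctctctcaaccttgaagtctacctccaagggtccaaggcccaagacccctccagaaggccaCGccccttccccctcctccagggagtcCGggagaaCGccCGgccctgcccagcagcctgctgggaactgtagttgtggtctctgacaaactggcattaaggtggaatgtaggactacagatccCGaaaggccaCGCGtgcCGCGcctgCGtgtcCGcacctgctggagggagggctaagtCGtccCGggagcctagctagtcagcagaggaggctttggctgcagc
The observed number of CpGs was 0.46 of that expected from base composition in these 300 bases, so the gene with the strongest summit did not have a CpG-dense start.

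The complexins split into pairs. Complexin 1 and complexin 2, the main forms of the brain, clamp and then promote fusion. The score was 199.2 for Cplx1 (chromosome 5, 108549729, 271 bp downstream of a TSS) and 193.5 for Cplx2 (chromosome 13, 54371864, 515 bp downstream). Both lay near the median of all release genes. Complexins 3 and 4 are known above all from the ribbon synapses of the retina. The score of Cplx3 was 5.34 (ENSMUSG00000039714, chromosome 9, 57606069, in the first exon, 167 bp downstream of a TSS), the lowest of the 56 genes and above only 9.49% of listed summits, and Cplx4 had no promoter summit. The Cplx1 and Cplx3 promoters are shown to set a gene of middle score beside a low-scoring relative, with CpGs in capitals and the same RefSeq window. Cplx1 covers chr5:108549978-108550277 and Cplx3 chr9:57606232-57606531, both on the minus strand.
Cplx1: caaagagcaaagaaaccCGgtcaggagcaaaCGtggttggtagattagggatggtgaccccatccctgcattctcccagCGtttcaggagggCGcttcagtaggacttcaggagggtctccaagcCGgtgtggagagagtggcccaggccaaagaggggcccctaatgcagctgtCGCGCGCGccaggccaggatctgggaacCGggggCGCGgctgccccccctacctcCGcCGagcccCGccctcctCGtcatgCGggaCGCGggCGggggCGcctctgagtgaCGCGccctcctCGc
Cplx3: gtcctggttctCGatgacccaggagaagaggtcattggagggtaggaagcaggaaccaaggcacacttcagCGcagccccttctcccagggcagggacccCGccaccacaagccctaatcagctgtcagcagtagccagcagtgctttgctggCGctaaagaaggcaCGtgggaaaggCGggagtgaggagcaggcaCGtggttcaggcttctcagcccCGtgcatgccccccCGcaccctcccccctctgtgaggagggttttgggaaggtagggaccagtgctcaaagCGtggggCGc
The Cplx1 window held 24 CpGs and the Cplx3 window 11. Cplx2 had a further summit outside its GENCODE limits that matched a RefSeq start site alone. It lay 68.0 kb upstream of the GENCODE 5′ end (chromosome 13, 54303339), scored 188.8 and was 783 bp downstream of the RefSeq TSS. A noncoding gene, Gm48623, has a GENCODE TSS there too, so the list does not show which of these starts the summit belongs to.

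The 15 synaptotagmins and related proteins with C2 domains, most of which sense calcium, covered almost the whole range. Syt1, the calcium sensor for fast synchronous release, had the highest score of the group at 264.9 (chromosome 10, 109010724, in the first exon, 238 bp downstream of a TSS, rank 7). Syt2, the fast sensor of the hindbrain and of fast inhibitory neurons, scored 71.1, and Syt9, which can serve the same role, 161.6. Among the forms that do not bind calcium or bind it weakly, Syt4 scored 230.4, Syt11 174.3 and Syt12 136.5. Syt7, the slow sensor of asynchronous release and facilitation, scored 152.2. Syt5 stood at 197.1, Syt10 at 176.5, Syt3 at 166.0 and Syt6 at 82.8. The scores of this family thus did not follow whether its members bind calcium, with Syt1 and Syt4 near the top and Syt2 and Syt6 near the bottom. The remaining proteins attach vesicles to the release apparatus. Rph3a (rabphilin, a Rab3 effector) scored 214.3, Doc2a 91.3, Sytl4 (granuphilin, which docks secretory granules) 43.3 and Doc2b 27.8. Doc2a and Doc2b encode sensors with high calcium affinity, and Doc2b had the lowest score of the group (chromosome 11, 75796333, rank 54), from a summit at −284 bp, upstream of the TSS.

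Doc2b shows what the window of 1 kb decides. A second summit of the gene (chromosome 11, 75795027) lay 1022 bp downstream of the TSS in an intron, and scored 120.9. With a window of 3 kb it became the best promoter summit of Doc2b. The best summit of Syn1, at 914 bp, was the farthest of all members that the window still included. The position of a single base thus decided whether Doc2b was counted below 50 or above the list median.

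The integral vesicle proteins had middle scores. The highest was Syngr1 (synaptogyrin 1) at 219.0 (chromosome 15, 80092017, 673 bp downstream of a TSS, rank 19), a summit that also lay within 1 kb of a TSS of Rpl3, a ribosomal protein gene. Sv2a, the binding site of the antiepileptic drug levetiracetam, scored 209.6, Sv2b 197.9 and Sv2c, a form enriched in the basal ganglia, 98.2. Syp (synaptophysin, the most used marker of synaptic vesicles) scored 185.4, Syngr3 190.6 and Syngr2, which is also made outside the nervous system, 148.2. The summit of Syngr2 lay within 1 kb of a TSS of Gm20708 as well. Synpr (synaptoporin, a relative of synaptophysin) was lowest at 62.5 (chromosome 14, 13454181, rank 52). In both families the form with the narrower distribution in the brain, Sv2c or Synpr, had the lowest score.

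The synapsins, which tether vesicles to actin and hold the reserve pool, scored 241.8 for Syn3, 226.6 for Syn2 and 187.2 for Syn1. Syn3 ranked 12 (chromosome 10, 86498611, 245 bp downstream of a TSS). Syn1 ranked 31 (chromosome X, 20920004). The Rab3 GTPases guide vesicles to the active zone. Rab3c scored 241.9 (chromosome 13, 110279965, 185 bp downstream) and Rab3a, the most abundant form of the brain, 225.8, from a summit at −224 bp from its nearest TSS. Rab3b was lower at 117.5 (chromosome 4, 108879244, 44 bp downstream, rank 45).

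The 15 active zone genes had a median score of 211.5, and 9 of them were above 200. Ppfia3, Ppfia2 and Ppfia1 encode liprins-α, adaptors that organise the active zone. Their best scores were 272.6, 267.0 and 165.2. Ppfia3 ranked 3 among the members (chromosome 7, 45366364, in the first exon, 350 bp downstream of a TSS). The giant scaffolds Bsn (bassoon) and Pclo (piccolo) scored 251.5 and 230.4. Of the RIM genes, whose proteins bind Rab3 and recruit calcium channels, Rims1 scored 247.2, Rims2 213.4, Rims4 203.0 and Rims3 100.8. The Munc13 genes, which prime vesicles, were ordered Unc13a at 221.5, Unc13b at 138.4 and Unc13c, best known from the cerebellum, at 135.6. The ELKS genes Erc1 and Erc2 scored 211.5 and 152.6. The exception in the group was Ppfia4, liprin-α4, with 8.97 (ENSMUSG00000026458, chromosome 1, 134304610, rank 55). That summit lay 198 bp from an internal TSS that belongs to noncoding transcripts of the gene, and with TSSs of protein-coding transcripts alone Ppfia4 had no promoter summit. A summit that scored 192.1, above 71.5% of those listed, lay 11.5 kb upstream of the GENCODE 5′ end of the gene (chromosome 1, 134344379) and 173 bp downstream of a TSS that RefSeq gives to Ppfia4 and GENCODE M21 does not. The value of Ppfia4 thus depended on the annotation, being 192.1 once RefSeq TSSs were added, a choice made after seeing the data. The RefSeq promoters at both 5′ ends are shown, CpGs in capitals. The upstream one covers chr1:134344667-134344966 and the one at the GENCODE 5′ end chr1:134332879-134333178, both on the minus strand. The upstream window belongs to a RefSeq start at 134344716, and not to the one at 134344552 from which the 173 bp were measured.
Ppfia4 upstream: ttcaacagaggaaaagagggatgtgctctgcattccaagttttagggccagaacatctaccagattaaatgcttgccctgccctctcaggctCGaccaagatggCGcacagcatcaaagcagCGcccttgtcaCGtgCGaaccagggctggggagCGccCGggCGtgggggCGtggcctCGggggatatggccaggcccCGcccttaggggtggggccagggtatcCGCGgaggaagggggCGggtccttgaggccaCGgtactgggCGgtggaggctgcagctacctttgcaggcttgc
Ppfia4 GENCODE 5′ end: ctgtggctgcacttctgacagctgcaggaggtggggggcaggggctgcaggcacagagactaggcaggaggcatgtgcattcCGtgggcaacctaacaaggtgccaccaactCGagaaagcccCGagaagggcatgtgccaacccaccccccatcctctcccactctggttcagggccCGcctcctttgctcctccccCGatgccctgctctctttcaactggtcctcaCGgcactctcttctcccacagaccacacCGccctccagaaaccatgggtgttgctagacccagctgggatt
The upstream window held 16 CpGs (observed over expected 0.54) and the other 7 (0.25).

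The vesicular glutamate transporters, which fill vesicles of excitatory neurons and tell their types apart, scored below most of the release genes or had no summit. Slc17a6 (VGLUT2, typical of thalamus and other subcortical neurons) scored 119.2 (ENSMUSG00000030500, chromosome 7, 51622703, in the first exon, 404 bp downstream of a TSS, rank 44). Slc17a7 (VGLUT1, typical of cortical and basolateral amygdala neurons) scored 104.8 (ENSMUSG00000070570, chromosome 7, 45164518, in an intron, 494 bp downstream of a TSS, rank 46). Slc17a8 (VGLUT3, found in a small set of interneurons and brainstem cells) had none (ENSMUSG00000019935, chromosome 10, 89574020 to 89621253, minus strand). No summit of the list lay within 3 kb of it, and the nearest was 64.5 kb from its TSSs. Both transporters with a summit lay just above the list median of 102.3 and below the lower quartile of all release genes. For each gene the RefSeq promoter nearest its 5′ end is shown so that the CpG content of the family can be seen, and RefSeq holds a further one for Slc17a6 and for Slc17a8. They cover chr7:45163671-45163970 on the plus strand for Slc17a7, chr7:51621580-51621879 on the plus strand for Slc17a6 and chr10:89621200-89621499 on the minus strand for Slc17a8.
Slc17a7: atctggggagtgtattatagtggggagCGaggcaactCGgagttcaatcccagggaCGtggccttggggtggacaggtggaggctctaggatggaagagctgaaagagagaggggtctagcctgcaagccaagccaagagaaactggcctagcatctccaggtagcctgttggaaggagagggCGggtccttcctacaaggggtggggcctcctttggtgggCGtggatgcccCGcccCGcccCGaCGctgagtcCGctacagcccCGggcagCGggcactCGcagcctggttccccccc
Slc17a6: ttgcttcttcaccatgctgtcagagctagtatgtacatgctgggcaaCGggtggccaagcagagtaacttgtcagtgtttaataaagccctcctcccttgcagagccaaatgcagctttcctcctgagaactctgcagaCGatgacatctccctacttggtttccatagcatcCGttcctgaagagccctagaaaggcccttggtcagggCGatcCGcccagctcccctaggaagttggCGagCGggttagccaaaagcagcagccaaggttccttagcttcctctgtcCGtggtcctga
Slc17a8: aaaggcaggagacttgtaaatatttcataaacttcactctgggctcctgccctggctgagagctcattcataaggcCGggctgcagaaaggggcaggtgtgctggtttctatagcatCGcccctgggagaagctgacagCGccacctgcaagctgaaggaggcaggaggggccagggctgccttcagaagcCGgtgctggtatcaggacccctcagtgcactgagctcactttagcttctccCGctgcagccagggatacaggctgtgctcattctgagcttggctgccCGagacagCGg
These windows held 13, 8 and 7 CpGs in the same order, with observed over expected values of 0.44, 0.37 and 0.28. The further RefSeq promoters had 0.26 for Slc17a6 and 0.40 for Slc17a8, so over all these RefSeq windows the genes were not separated. Within 500 bp either side of the GENCODE start, the values were 0.63 for Slc17a6, 0.54 for Slc17a7 and 0.27 for Slc17a8. In that window Slc17a8, the gene without a summit, was thus the lowest of the family. The start used was the one nearest the best summit, or the 5′-most for Slc17a8.

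Summits lay mostly just inside the genes. The best summit was downstream of its nearest TSS in 51 of 56 genes (91.1%), and in 79.3% of all coding genes with a promoter summit. The median position was 224.5 bp downstream of the TSS, with quartiles of 155 and 412.5 bp, where all coding genes had a median of 171 bp. In 5 genes the best summit was upstream of the nearest TSS. These were Erc1 at −538 bp, Doc2b at −284 bp, Rab3a at −224 bp, Rph3a at −76 bp and Syt3 at −53 bp. Those of Rab3a, Rph3a and Syt3 still lay inside the gene, 607, 1474 and 713 bp downstream of its 5′-most TSS. At the other end, 4 genes had their best summit more than 700 bp downstream of the nearest TSS. They were Syn1 (914 bp), Rims3 (845 bp), Sv2a (777 bp) and Syngr3 (776 bp). By annotation 35 best summits fell in introns, 19 in exons and 2 outside any transcript of the gene (Erc1 and Doc2b). Another protein-coding gene had a TSS within 1 kb of the best summit in 3 cases, which were Syngr1 with Rpl3, Syt3 with 1700008O03Rik and Syngr2 with Gm20708. At these 3 a summit cannot be given to 1 gene alone. The 4 genes with scores below 50 lay at −284 bp (Doc2b) and at 152, 167 and 198 bp (Sytl4, Cplx3 and Ppfia4), so they did not stand apart in position.

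**Figure D3:**
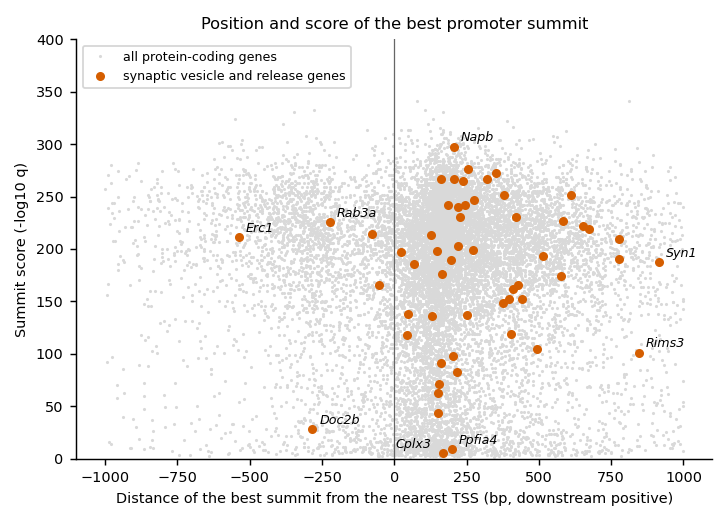
Distance of the best promoter summit from the nearest TSS (bp, downstream positive) against its score (−log10 q). Orange points are the 56 release genes with a promoter summit and grey points all 14197 protein-coding genes with one. The quartiles of the orange points are 155 and 412.5 bp downstream, and Erc1 lies farthest upstream at −538 bp.

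More than 1 promoter summit was found in 16 of 58 genes (27.6%), and in 11.7% of all coding genes. These shares include genes without any promoter summit, which are more frequent among all coding genes. Over genes with at least 1, the counts were 16 of 56 and 2569 of 14197. The release genes have many annotated starts, with a median of 4 TSSs against 3. Among genes with at least 4 TSSs, 13 of 40 release genes (32.5%) and 20.1% of coding genes had more than 1 promoter summit. In 8 of the 16 genes every further summit lay under 5 kb from the best one. These were Ppfia3, Napa, Syngr3, Bsn, Rims4, Ppfia1, Syt11 and Slc17a7, with second scores from 8.28 (Slc17a7) to 154.4 (Ppfia1). In Ppfia1, Rims4, Slc17a7, Bsn and Napa the pair was less than 1 kb apart, with 1 summit upstream and the other downstream of the start.

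In the other 8 genes a further promoter summit lay 5 kb or more from the best, at a separate start of the gene. Rims2 had 3 over 461 kb of chromosome 15, with scores of 192.8 at 39198305 next to the 5′ end, 174.3 at 39392628 and 213.4 at 39659692. The strongest was the one farthest downstream, 126 bp from a start near the 3′ end of the gene. Erc2 had scores of 152.6 and 124.4 at positions 254 kb apart (chromosome 14, 27622952 and 27876583), and Synpr 62.5 and 55.4 at positions 169 kb apart. In both genes the paired scores were close to each other. Unc13b had 138.4 at its GENCODE 5′ end and 67.0 at a position 150 kb downstream (chromosome 4, 43059126 and 43209410). A summit of 105.6 at 43046136, 12.8 kb upstream of that end, lay at −57 bp from a RefSeq TSS of Unc13b that GENCODE M21 lacks. A weaker one of 6.20 lay beside it. Fam214b and Gm26881 have GENCODE TSSs there too, so these cannot be given to Unc13b alone. Syt2 had the higher score, 71.1, at an internal start 62.6 kb from the summit at its 5′ end, which scored 26.3. Erc1 had 211.5 and, 51.7 kb away, 9.19. Vamp1 had 240.0 and, 15.9 kb away, 160.8 (chromosome 6, 125231684), and the latter also lay within 1 kb of a TSS of the neighbouring gene Tapbpl. Syn3 had 241.8 and, 6.79 kb away, 58.9. Further promoter summits at or above the list median occurred in 4 of the 16 genes, namely Rims2 (2 of them), Vamp1, Ppfia1 and Erc2.

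A summit inside the gene but beyond 1 kb of its own TSSs was found in 25 of 58 genes (43.1%), and in 14.7% of all coding genes. The release genes are long, with a median of 48.2 kb against 17.4 kb for all coding genes. Among genes of at least that median length the counts were 17 of 29 release genes (58.6%) and 32.8% of coding genes. Among shorter genes they were 8 of 29 (27.6%) and 9.05%. The share was thus higher among the release genes in both length classes. These 25 genes held 40 such summits, 34 in introns and 6 in exons, with a median score of 13.4 and a range of 1.89 to 151.3, and 29 of them scored below 30. Of the 40, 23 lay within 6 kb downstream of a TSS of the gene. Examples were the 3 in Syt4 on chromosome 18 (23.6, 12.1 and 4.45), the 3 in Rph3a (9.19, 4.87 and 1.89), the 3 in Rims4 (24.2, 3.52 and 33.3) and the 2 in Cplx2 (15.4 and 19.5). Any TSS of the gene was counted, so the 23 include summits behind internal starts, such as that of Erc2, 256 kb from its 5′ end. The same share over all coding genes was not computed, so this count is not a trait of the release genes.

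Only 5 of the 40 reached the list median, in 4 genes. In Syn3 the summit at 86300803 on chromosome 10 scored 151.3 and lay 247 bp from the TSS of Timp3, a metalloproteinase inhibitor gene nested in an intron of Syn3. In Rims1 a pair lay deep in the gene on chromosome 1. The summit at 22533483, 273 kb from the 5′ end, scored 125.0 and fell in an exon, in 1 kb of sequence with an observed over expected CpG of 0.98. The summit at 22509140, 297 kb from the 5′ end, scored 104.0 in an intron with a CpG value of 0.24. Neither was within 1 kb of a TSS of any gene in GENCODE or of a Rims1 TSS in RefSeq. In Ppfia2 the summit at 106632762 on chromosome 10 scored 119.3, 162 kb from the GENCODE 5′ end. It lay 234 bp downstream of a RefSeq TSS of the gene that GENCODE M21 lacks. The last was the Doc2b summit at 1022 bp, which also lay within 1 kb of a TSS of the noncoding gene Gm12339. Apart from the pair in Rims1, each of these strong summits was next to an annotated start of some gene or just beyond the window of 1 kb.

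**Figure D4:**
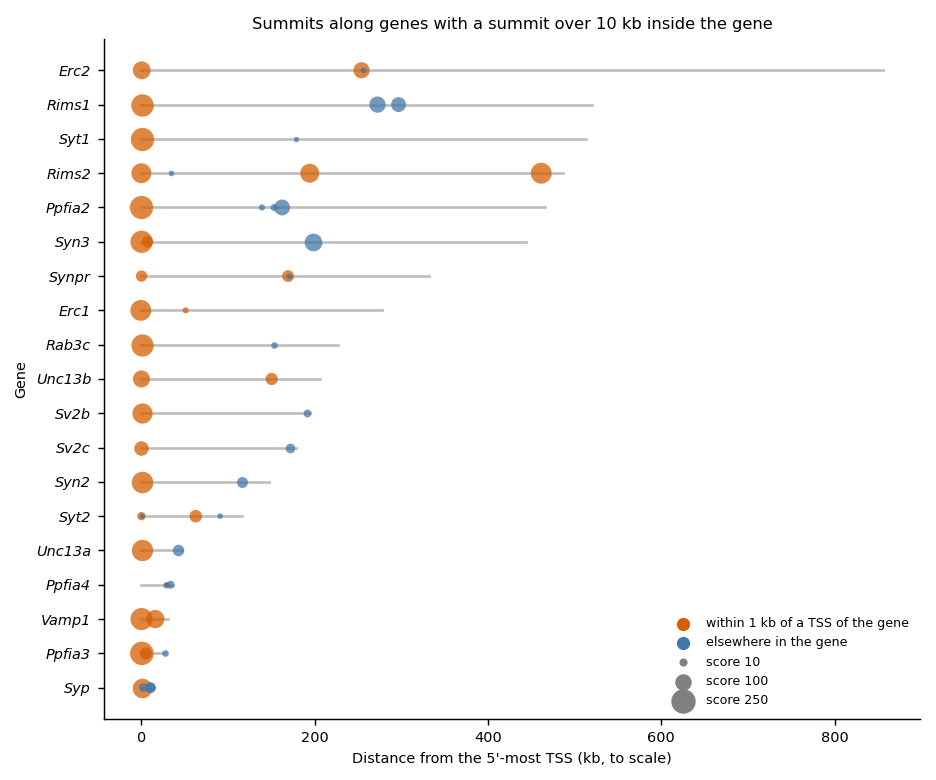
Summits along the genes that have a summit more than 10 kb from their 5′-most TSS, to scale in kb from that TSS. Circle area grows with score (−log10 q), orange circles lie within 1 kb of a TSS of the gene and blue circles elsewhere in it. Rims2 has 3 large orange circles over 461 kb, and Rims1 has 2 blue circles near 273 and 297 kb.

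The remaining gene body summits far from the 5′ end of their genes were weaker. Syn2 held 1 with a score of 51.7 (chromosome 6, 115251554) that lay 294 bp from the TSS of Timp4, nested in Syn2 as Timp3 is in Syn3. Timp1, nested in Syn1, had no summit within 3 kb, so the 3 synapsin genes differed in this. Unc13a had a summit of 57.7 in an exon 42.5 kb from its 5′ end, and Syp, a gene of 14.8 kb, had summits of 47.7 and 46.3 at 10.2 and 10.8 kb. Sv2c had one of 37.2 in an exon near its 3′ end, 171 kb from the 5′ end, and Sv2b one of 21.7, 191 kb from the 5′ end. Ppfia3 had one of 12.4 in an exon 27.6 kb from the 5′ end. Most of these lay toward the 3′ ends of their genes. The Syp summits of 47.7 and 46.3 and that of Ppfia3 also lay 4811, 5330 and 1337 bp downstream of internal TSSs. They are thus among the 23 counted above within 6 kb of a TSS of the gene. The remaining scores were 27.4 for the other summit of Syp, 22.8 and 5.68 in Ppfia4, 22.3 in Syt7, 14.3 and 10.1 in Ppfia2, and 12.5 in Slc17a6. Rab3c had 12.1, Slc17a7 9.97 and 9.18, Synpr 8.07, Syn1 and Erc2 7.12 each, Rims2 6.20, Syt2 5.50 and 2.62, and Syt1 4.26.

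The CpG content of the promoters was close to that of coding genes at large, with fewer CpG-poor starts. The ratio of observed to expected CpG within 500 bp of the start was 0.60 in the median of the 58 genes and 0.59 over all coding genes. It was below 0.4 in 9 release genes (15.5%) and in 36.4% of all coding genes. Of those 9, 8 had a promoter summit (88.9%), where 16.0% of the 7975 CpG-poor coding genes had one. Syn3, Rph3a, Sv2a, Syp and Syt3 were above 150 in score, which 4.15% of the CpG-poor coding genes were. Unc13c (135.6), Synpr (62.5) and Ppfia4 (8.97) were lower, and Slc17a8 had none. Among genes with a ratio of at least 0.4, 98.0% of the release genes and 92.6% of all coding genes had a promoter summit. The start used was the one nearest the best summit, or the 5′-most where there was none, so the choice of start is not independent of the summit. In the RefSeq windows of 300 bases the ratio was 0.70 for Syp, 0.55 for Syt3 and 0.51 for Sv2a. Those starts lay 792, 689 and 701 bp upstream of the summits, and Syn3 had no RefSeq sequence. That these genes counted as CpG-poor thus depended on the start and window. Rph3a is shown because its summit (chromosome 5, 121008618) falls within the printed bases although they hold only 5 CpGs. The sequence covers chr5:121008435-121008734 on the minus strand, the summit is at −134 bp from this RefSeq start, and CpGs are in capitals.
Rph3a: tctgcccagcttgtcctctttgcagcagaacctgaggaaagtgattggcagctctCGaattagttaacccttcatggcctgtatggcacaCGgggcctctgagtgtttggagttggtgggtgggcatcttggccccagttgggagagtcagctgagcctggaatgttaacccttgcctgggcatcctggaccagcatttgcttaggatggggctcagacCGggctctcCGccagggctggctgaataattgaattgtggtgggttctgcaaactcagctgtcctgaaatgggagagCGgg
It scored 214.3, above 80.3% of listed summits and 63.0% of the best promoter scores of coding genes. Its observed over expected CpG was 0.22 in both windows. RefSeq holds further Rph3a promoters, at starts 920 and 1474 bp upstream of the summit, with ratios of 0.55 (16 CpGs) and 0.38 (7 CpGs).

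Across the 56 genes, the score and the CpG ratio had a Pearson's r of 0.18 and a Spearman's rho of 0.13. Across all 14197 coding genes with a promoter summit these were 0.36 and 0.26. The points share 1 pooled list and its depth, and they are genes and not replicates. Score varied as little with GC percent (r = −0.01), gene length (r = 0.15) and number of TSSs (r = −0.02) over the 56 genes. High scores thus occurred at low, middle and high CpG contents, as in Rph3a (0.22, score 214.3), Napb (0.49, score 297.6) and Nsf (0.92, score 251.5). Of the genes below 50, only Doc2b had a high ratio (0.88, score 27.8), and its score became 120.9 with a window of 3 kb. Ppfia4, Cplx3 and Sytl4 had ratios of 0.32, 0.40 and 0.44.

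**Figure D5:**
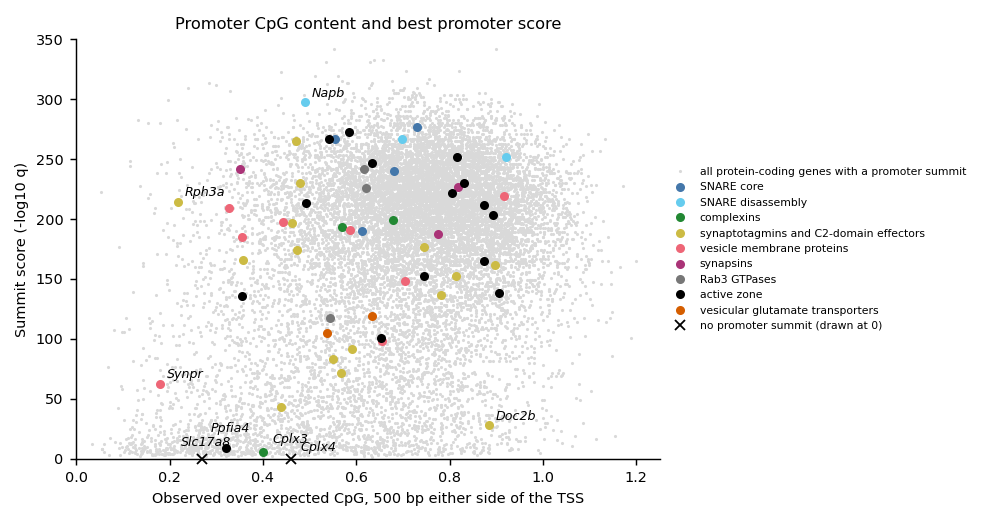
Ratio of observed to expected CpG within 500 bp of the TSS against the best promoter score (−log10 q). Coloured points are release genes by role, crosses the 2 genes without a promoter summit (drawn at 0) and grey points all protein-coding genes with one. Rph3a (0.22) and Synpr (0.18) lie farthest left, with scores of 214.3 and 62.5.

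Short motifs were searched on both strands in the same 500 bp either side of the start, counting a promoter once per motif. The GC box GGGCGG occurred in 49 of 58 release genes (84.5%) and in 63.1% of all coding promoters of the same length. TATAAA occurred in 12 (20.7%, all coding 30.2%). The cAMP response element, TGAC followed by GTCA, occurred in 5 (8.62%, all coding 3.32%), which were Napa, Ppfia1, Snap25, Syn1 and Syngr3. The NRF1 palindrome, GCGCA followed by TGCGC, occurred in Bsn, Ppfia1 and Syn1 (5.17%, all coding 1.73%). The core of the RE1 element, at which the repressor REST silences neuronal genes outside the nervous system, occurred in Syt4 alone (1.72%, all coding 0.141%). It was searched as CAGCACC, any 2 bases and GGACAG, without mismatch. These are matches of letters and not measured binding sites. Over the genes with a promoter summit, the median score was 187.2 for those with a GC box and 225.8 for those without. It was 221.5 for those with TATAAA and 187.2 for the rest, and 190.6 with the cAMP response element and 193.5 without. Few genes lacked a GC box or held TATAAA or the cAMP response element, so these differences carry little weight.

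Genes that work beside these in vesicle release and recycling were listed for comparison, and 102 of the 103 were found in the annotation. Of the 102, 92 had a promoter summit (90.2%, all coding 64.7%), with a median score of 218.3. All 13 genes of the proton pump that acidifies vesicles had one, with a median of 263.2, and the highest score of the list was that of its subunit gene Atp6v1c1 at 309.8. All 23 genes of vesicle retrieval had one, with a median of 229.0. Dnm1 (dynamin 1, which pinches off vesicles) scored 7.08 within the window, with a stronger summit of 229.6 at 1115 bp. The other SNARE and Munc18 genes had one in all 17 cases, with a median of 217.4, whereas the other synaptotagmins and effectors had one in 5 of 11. The 10 without were Doc2g, Sytl1, Sytl3, Sytl5, Syt8, Syt15, Scamp1, Slc17a9, Slc18a3 and Cadps. Cadps (CAPS1, which primes dense-core vesicles) and Scamp1 had summits with scores of 229.2 and 217.2 at 1439 and 1148 bp, outside the window. Slc18a3, the vesicular acetylcholine transporter, had no summit within 3 kb. The lowest score was 3.46, in Unc13d, the Munc13 form of blood cells. The 58 release genes thus had a promoter summit at least as often as these neighbours in the pathway (96.6% against 90.2%), and their median score was lower.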

How the data were processed

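H3K4me3 ChIP-seq of amygdala nuclei was analysed from the WT summit list alone. According to the Methods and the submitters' processing notes, reads were aligned by the authors with Bowtie to the mm10 build and handled with SAMtools, and peaks were called against input with MACS2 2.1.0.20140616. The authors deposited 1 list for both WT mice, whose score was taken as a −log10 q-value from the form and range of the values, since the list has no header. The Methods state that black-list regions were removed, and it is unclear whether this applied to the deposited list. The Methods give read depths over the samples, while that of the pooled WT list is not given in the sources used here. Intervals of single scores were therefore not computed. Medians over the release genes were given a 95% interval over genes, which does not cover variation between mice. It was 165.2 to 213.4 for the best score and 197 to 319 bp for the position. There were 0 unmatched columns of per-sample values.

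Summits of the autosomes, X and Y were assigned to every gene with a GENCODE M21 TSS within 1 kb, the window of the Methods. All TSSs of a gene were used. Gene body summits lay inside the gene and beyond 1 kb of its own TSSs. Comparisons are counts and medians beside all protein-coding genes. No test was run, since a list that pools its samples holds no replicates. CpG content and motifs were taken from GRCm38 in 500 bp either side of the TSS nearest the best summit. RefSeq promoter sequences were matched by symbol for 45 of 58 genes. The others were Snap25, Vamp2, Cplx4, Syt4, Syt5, Syt7, Syt12, Doc2a, Doc2b, Syngr3, Syn3, Rims2 and Rims4.

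The members and lists were chosen with earlier results of these data known. All 58 members are accounted for, with positions for the highest and lowest of each role, for those without a promoter summit and for those with further summits that scored high or lay far away. Of the other release genes, those without a summit and the extremes are named, and the rest by group. Sequences printed were chosen after their values were seen. The assignment of summits was tested on simulated data. The scripts ran in Python 3.11.15 with pysam 0.24.0, pandas 2.3.3, numpy 2.4.6, samtools 1.23.1, scipy 1.17.1 and, for the plots, matplotlib 3.10.9.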

Additional observations from a re-analysis of the deposited data

How the results depend on the processing

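Alternatives covered promoter windows of 500 bp and 3 kb, scores of at least 10 or at the list median, TSSs of protein-coding transcripts or the 5′-most TSS alone, CpG content in 250 in place of 500 bp, joining of summits within 1 kb, and RefSeq TSSs, the last chosen after seeing the data. Genes with a promoter summit numbered 46 to 56 of 58, where 52.0% to 67.1% of all coding genes had one. With the 5′-most TSS alone the median position moved from 224.5 to 416 bp, and that of all coding genes from 171 to 276 bp. Genes with more than 1 promoter summit fell from 16 to 5 of 58, since fewer starts were then used. The share of all coding genes fell from 11.7% to 4.36%. With scores at or above the list median, 4 of 58 genes had more than 1 promoter summit and 4 a gene body summit. This was in place of 16 and 25, since weak summits were then left out. The shares of all coding genes were then 4.27% and 3.22%, so both contrasts rested largely on summits below the list median. The other 45 summary values changed by less than 1.5 times or within the interval of the median. Among them, genes with more than 1 promoter summit ranged from 11 to 23, and genes with a gene body summit from 17 to 31. In the same settings the shares of all coding genes ranged from 7.59% to 17.7% and from 9.29% to 23.8%. A window of 500 bp left 48 genes and lost Cplx2, Rims3, Sv2a, Syn1, Syn2, Syngr1, Syngr3 and Unc13a, and it took the best scores of Bsn, Erc1 and Syt11 to 24.9, 9.19 and 67.0. The 5′-most TSS lost Ppfia4, Rab3c, Rph3a and Sv2b, and took Rims2, Synpr, Syt11 and Syt2 to 192.8, 55.4, 67.0 and 26.3.

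No paired analysis was possible because the list pools both WT mice, and for the same reason no result was recomputed without 1 of the mice. The depth of the pooled list is not given, so of a gene without a summit only that none was detected can be said. Each summit is a single base, and the width of the marked region is not given.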
